A study of Mus musculus with 2 samples.

Results

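A small class of lens epithelial cells (LECs) of the newborn mouse carried transcripts of Cenpa, Ccnb2, Knstrn and Cdkn3 while holding few transcripts of the genes that mark mitosis. The cells were chosen by these transcripts. A barcode had to hold at least 3 unique molecular identifiers (UMIs, 1 per captured transcript) of the 4 genes together, fewer than 4 of Ube2c, Cenpf, Cdc20, Ccnb1, Prc1 and Hmmr, and fewer than 4 of the S-phase histone genes Hist1h1b, Hist1h2ap and Hist1h2ae. It also had to be a lens cell, with 949 to 20198 UMIs, 446 to 4261 genes, at most 15% mitochondrial UMIs and at least 2% of UMIs from the alpha crystallins Cryaa and Cryab. Cells with 1% or more of UMIs from Cryba2, Cryba4 and Crybb1, beta crystallins of differentiating fibers, were left out. The rule found 823 cells among 19051 lens cells and 21739 barcodes in all: 420 cells in pool 1 and 403 in pool 2. They are called Cenpa/Ccnb2 LECs here.

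The study profiled freshly isolated LECs of wild-type C57BL/6N mice at P2 by droplet single-cell RNA sequencing of transcript 3′ ends. Each of the 2 samples was a separate pool of lenses from 4 to 8 pups, and there was no other genotype, treatment or age. Epithelia were isolated on their capsules, without the fibers, and digested to single cells, and the sex of the pups is not given. Pool 1 held 93839132 UMIs in 12314 barcodes and pool 2 86033032 in 9425. Individual pups cannot be told apart within a pool, so n is 2 for every comparison. The p-values measure only how differences between classes vary between the 2 pools. That spread was estimated over all 4 classes and drawn towards that of other genes.

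As background, a cell that is about to divide makes the proteins of the mitotic spindle, of the kinetochore, where chromosomes attach to it, and of the kinases that drive division. During mitotic exit the anaphase promoting complex marks many of these proteins for destruction, and each daughter cell loads new CENP-A, the histone H3 variant encoded by Cenpa, onto its centromeres early in the next G1. Ccnb2 encodes cyclin B2, a partner of the mitotic kinase Cdk1. Knstrn encodes a spindle and kinetochore adaptor, and Cdkn3 a phosphatase that acts on cyclin-dependent kinases. In the lens, division takes place in the epithelium, and cells that leave the cycle near the equator become fibers.

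Many genes of G2 and mitosis share 2 promoter elements: the cell cycle genes homology region (CHR), with the letters TTTGAA, and the CCAAT box. Promoters from 250 bases before to 50 after the annotated start (RefSeq, GRCm38.p6) were searched for both on both strands, so that TTCAAA and ATTGG count as well. The 2 motifs can overlap by shared letters. Printed are the promoters of 3 of the genes that chose the cells and of Lockd, Cdca3, Ube2c and Plk1. They were taken because they hold matches, so that the positions can be compared. Lockd and Cdca3 were higher in the cells than in LECs without cycle transcripts, a class defined below. Both were lower than in mitotic-gene LECs, also defined below, as Plk1 was. Ube2c was kept low by the rule. Not every cycle gene held a match. Capitals mark the matches, and each sequence reads in the direction of transcription.
Cenpa: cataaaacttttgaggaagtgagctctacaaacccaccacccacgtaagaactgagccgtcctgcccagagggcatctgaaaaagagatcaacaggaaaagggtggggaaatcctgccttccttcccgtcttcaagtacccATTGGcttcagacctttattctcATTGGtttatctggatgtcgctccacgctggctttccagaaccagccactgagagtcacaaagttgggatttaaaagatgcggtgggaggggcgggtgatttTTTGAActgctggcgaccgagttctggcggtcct
Ccnb2: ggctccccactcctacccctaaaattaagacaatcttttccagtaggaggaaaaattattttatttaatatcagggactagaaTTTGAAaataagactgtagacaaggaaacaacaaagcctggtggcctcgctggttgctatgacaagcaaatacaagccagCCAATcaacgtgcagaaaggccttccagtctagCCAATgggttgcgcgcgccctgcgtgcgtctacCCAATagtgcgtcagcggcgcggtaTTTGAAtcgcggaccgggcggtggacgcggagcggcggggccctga
Cdkn3: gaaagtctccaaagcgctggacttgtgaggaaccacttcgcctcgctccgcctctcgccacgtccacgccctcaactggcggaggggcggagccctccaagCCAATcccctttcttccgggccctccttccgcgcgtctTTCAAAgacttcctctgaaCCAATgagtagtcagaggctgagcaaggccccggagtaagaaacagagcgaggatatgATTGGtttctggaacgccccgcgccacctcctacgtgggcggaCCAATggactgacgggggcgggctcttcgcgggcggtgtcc
Lockd: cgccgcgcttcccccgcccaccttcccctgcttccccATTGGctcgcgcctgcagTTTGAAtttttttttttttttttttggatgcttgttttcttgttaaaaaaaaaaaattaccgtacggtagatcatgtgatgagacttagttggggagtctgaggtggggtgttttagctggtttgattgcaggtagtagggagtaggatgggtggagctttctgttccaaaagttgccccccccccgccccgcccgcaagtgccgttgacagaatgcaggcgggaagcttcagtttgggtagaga
Cdca3: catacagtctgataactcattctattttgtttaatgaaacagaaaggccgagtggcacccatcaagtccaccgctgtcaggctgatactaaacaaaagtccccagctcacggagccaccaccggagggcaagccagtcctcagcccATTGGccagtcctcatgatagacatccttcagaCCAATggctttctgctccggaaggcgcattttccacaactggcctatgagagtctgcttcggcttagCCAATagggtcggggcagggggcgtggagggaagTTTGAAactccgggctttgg
Ube2c: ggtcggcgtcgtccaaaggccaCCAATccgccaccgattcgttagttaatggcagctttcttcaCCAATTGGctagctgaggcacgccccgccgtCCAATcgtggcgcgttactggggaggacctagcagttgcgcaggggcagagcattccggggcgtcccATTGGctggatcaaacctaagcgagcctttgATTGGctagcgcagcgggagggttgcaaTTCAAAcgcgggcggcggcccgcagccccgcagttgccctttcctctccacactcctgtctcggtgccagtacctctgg
Plk1: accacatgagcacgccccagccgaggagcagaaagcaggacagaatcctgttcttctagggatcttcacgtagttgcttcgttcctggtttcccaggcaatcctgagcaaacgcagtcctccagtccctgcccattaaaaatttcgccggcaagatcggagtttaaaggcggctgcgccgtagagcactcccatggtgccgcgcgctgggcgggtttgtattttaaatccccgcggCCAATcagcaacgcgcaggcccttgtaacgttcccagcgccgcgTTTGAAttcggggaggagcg
They lie at chr5:30666636-30666935, plus strand (Cenpa), chr9:70421505-70421804, minus strand (Ccnb2), chr14:46760291-46760590, plus strand (Cdkn3), chr6:134928842-134929141, plus strand (Lockd), chr6:124829926-124830225, plus strand (Cdca3), chr2:164769679-164769978, plus strand (Ube2c) and chr7:122159185-122159484, plus strand (Plk1).

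The Cenpa promoter held 1 CHR, which begins 16 bases after the start, and 2 CCAAT boxes. Ccnb2 held 2 and 3, Cdkn3 1 and 4, Lockd 1 and 1, and Cdca3 1 and 3. Ube2c held 1 CHR and 6 CCAAT boxes and Plk1 1 and 1, while Nusap1 held neither. No match lay in the windows of Knstrn and Birc5 either. Of these, Knstrn chose the cells, and Birc5 was higher in them than in LECs without cycle transcripts. Over all 32851 promoters of the reference, 17.9% held a CHR, 37.4% a CCAAT box and 6.95% both. Counted by gene, 13.8% of the genes tested below held a CHR and 5.80% both. Of the 60 genes with a promoter entry that were over 4-fold higher in Cenpa/Ccnb2 LECs than in LECs without cycle transcripts, 28 (46.7%) held a CHR and 20 (33.3%) both. The cells were chosen by genes of this kind, so these shares follow in part from the choice. The motifs were not particular to genes high in the cells. Of 1010 genes lower than in mitotic-gene LECs, defined below, 25.1% held a CHR and 15.1% both. Of 811 genes higher than in that class, 11.3% held a CHR and 3.45% both. All these shares describe letters in a window and do not show binding.

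The cells made up 3.81% of lens cells in pool 1 (420 of 11019, exact 95% binomial interval 3.46 to 4.19) and 5.02% in pool 2 (403 of 8032, 4.55 to 5.52), a mean of 4.41% ± 0.853 (SD, n = 2). Intervals here and below cover counting error only. The 3 classes used for comparison were set by the same genes. LECs without cycle transcripts held no UMI of any of the 13 cycle genes and numbered 7892. Mitotic-gene LECs held 4 or more UMIs of the 6 mitotic genes and under 4 of the 3 histone genes (1184 cells), and S-phase-histone LECs the reverse (830 cells).

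Cenpa/Ccnb2 LECs held little RNA. Their median was 5105 UMIs in pool 1 (quartiles 4567 and 5758) and 6406 in pool 2 (5665 and 7242). LECs without cycle transcripts had medians of 5753 and 7367 UMIs. Mitotic-gene LECs had 7987 and 7842, with wide quartiles of 5301 and 9987 in pool 1 and 6327 and 11285 in pool 2. S-phase-histone LECs had 7537 and 8890, and cells with both mitotic and histone transcripts 8834 and 10878. In each pool the Cenpa/Ccnb2 LECs were the shallowest of these 5 classes. A cell with few UMIs passes an upper limit on mitotic UMIs more easily, so depth and membership are not independent. The plot of UMIs per cell and class shares shows both measures.

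**Figure D1:**
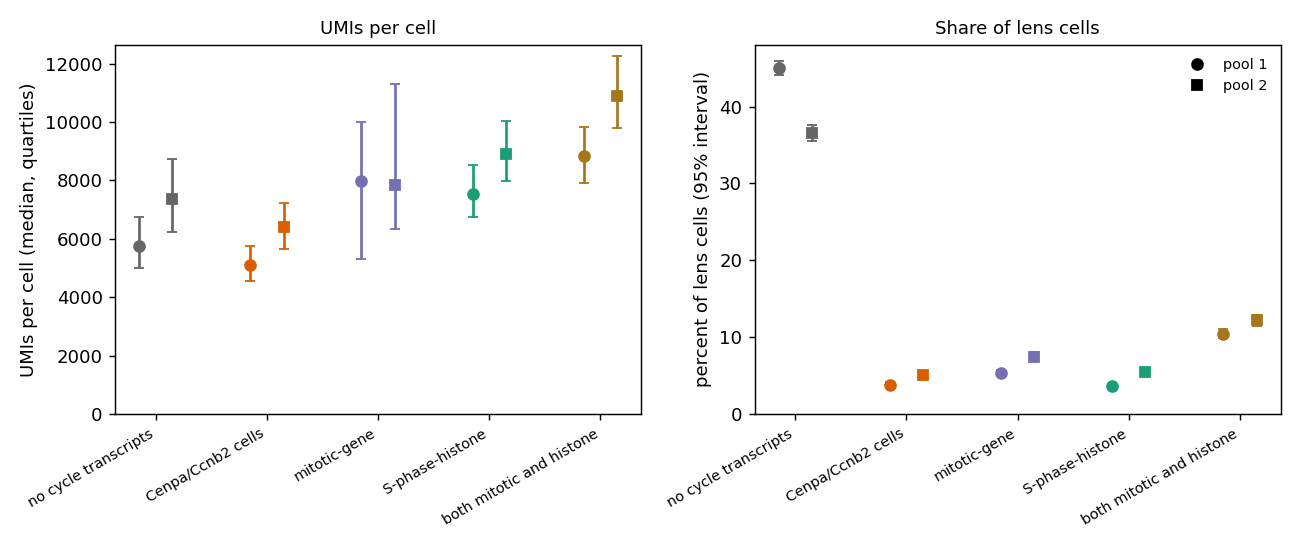
UMIs per cell (left, median with quartiles) and percent of lens cells (right, with exact 95% binomial intervals) for 5 classes of LECs, circles for pool 1 and squares for pool 2. Cenpa/Ccnb2 LECs, with medians of 5105 and 6406 UMIs, lie below each other class of their own pool, and their shares are 3.81 and 5.02%.

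When each cell was thinned to 3000 UMIs, 2.59% of lens cells in pool 1 (278 of 10728) and 4.03% in pool 2 (314 of 7795) met the rule. Cells under that depth were left out, 291 and 237. Of the 278 and 314 cells, 64 and 123 held too many UMIs of the mitotic genes for the rule at full depth. These counts do not separate mitotic-gene LECs from cells with both mitotic and histone transcripts. Of the 410 and 398 Cenpa/Ccnb2 LECs deep enough to be thinned, 214 and 190 still met the rule. The edge of the class therefore moved with depth.

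The genes that chose the cells are given as a description. Cenpa had 2.68 UMIs per cell in pool 1 and 3.09 in pool 2, and at least 1 UMI in 96.2 and 98.5% of the cells. Ccnb2 followed with 1.03 and 1.24, Knstrn with 0.890 and 0.859 and Cdkn3 with 0.231 and 0.231 UMIs per cell. Cenpa was thus the transcript that most often met the rule, and Cdkn3 was seen in 20.0 and 20.6% of the cells. Mitotic-gene LECs had more of each, with 4.71 and 5.31 Cenpa UMIs per cell. For comparison, Cenpa was seen in 3.57 and 3.01% of differentiating, beta-crystallin-rich lens cells, which had deeper medians of 12260 and 13504 UMIs. Whether these transcripts were free RNA or the cells' own was not tested. The plot of the defining genes gives all 13.

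**Figure D2:**
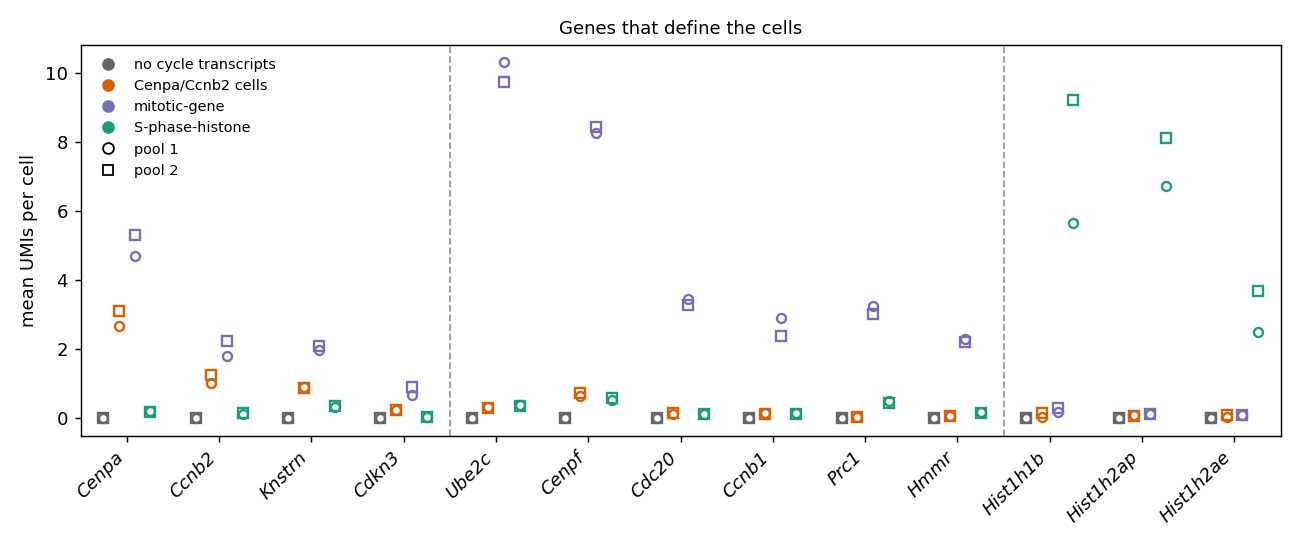
Mean UMIs per cell of the 13 cycle genes that define the classes, in 4 classes of LECs (colours) and 2 pools (circles, pool 1; squares, pool 2); dashed lines part the 4 including, 6 mitotic and 3 histone genes. Cenpa is the highest of the 13 in Cenpa/Ccnb2 LECs, at 2.68 and 3.09, and the levels follow from the choice of cells.

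Of the 4 genes together, 3 UMIs, the least the rule allows, were held by 125 and 100 cells. Another 163 and 142 held 4 or 5, and 132 and 161 held 6 or more, up to 14 and 18. Only 1 of the 4 genes was seen in 52 and 42 cells, and all 4 were seen in 24 and 34. Of the 6 mitotic genes, 125 and 115 cells held no UMI and 60 and 76 held 3, the most allowed. Cenpf was the commonest of them, with 0.645 and 0.720 UMIs per cell against 8.26 and 8.43 in mitotic-gene LECs, while Prc1, a midzone protein of cytokinesis, had 0.021 and 0.020 against 3.25 and 3.01.

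The markers Lockd and Hist1h1c were not among the genes of the rule. They were taken with earlier results of these data known, so their p-values are not an independent test. Lockd was also lower in cells just outside the lower UMI limit of the rule than in those just inside it. Its differences can therefore follow in part from the choice of cells. Lockd, a long noncoding RNA gene beside Cdkn1b (chromosome 6, 134929092 to 134956798, plus strand, GRCm38), had 109 and 139 CPM (counts scaled to a common total of UMIs per class and pool) in Cenpa/Ccnb2 LECs. LECs without cycle transcripts had 3.38 and 2.58, S-phase-histone LECs 38.5 and 27.2, and mitotic-gene LECs 210 and 246. Its level in Cenpa/Ccnb2 LECs lay between those of mitotic-gene LECs and the other classes in both pools. The log2 fold change was 5.29 ± 0.18 against LECs without cycle transcripts. It was 1.90 ± 0.17 against S-phase-histone LECs and -0.84 ± 0.11 against mitotic-gene LECs. After Benjamini-Hochberg (BH) adjustment, p was 4.5e-10, 3.22e-06 and 1.88e-04 in the quasi-likelihood model of edgeR. Each ± here and below is an approximate SE, the log2 fold change divided by the square root of its F statistic. It can be too small for genes with few UMIs.

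Hist1h1c, a linker histone gene (chromosome 13, 23738808 to 23740367), had 242 and 368 CPM. The level was 39.3 and 78.4 in LECs without cycle transcripts, 91.7 and 208 in mitotic-gene LECs, and 203 and 275 in S-phase-histone LECs. Cenpa/Ccnb2 LECs thus had the highest value of the 4 classes in each pool. The difference from LECs without cycle transcripts was 2.35 ± 0.22 on the log2 scale (edgeR, BH-adjusted p = 0.00778, higher in both pools), a call that was lost without the block for pool (2.33). Those from mitotic-gene (1.06 ± 0.23, adjusted p = 0.0728) and S-phase-histone LECs (0.30 ± 0.23, adjusted p = 0.414) did not pass the threshold of 0.05.

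The name that came with the cells, leaving mitosis, is a reading that their transcripts alone cannot settle. All cells were taken at 1 age and none was followed, so the order of the classes in time was not measured. What can be checked is which transcripts of dividing cells were present. Of the lens epithelial list, 15 genes took no part in the choice of cells, and they summed to 5320 and 4995 CPM. LECs without cycle transcripts had 5470 and 5029, mitotic-gene LECs 5185 and 4728, and S-phase-histone LECs 4402 and 3980. Pax6, the eye master regulator, had 371 and 342 CPM, against 360 and 317 in LECs without cycle transcripts.

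Transcripts of other cell types were few. The endothelial list of 8 genes summed to 137 and 105 CPM (8 of 8 detected), against 86.0 to 113 CPM in the other classes. The macrophage list summed to 126 and 103 CPM (8 of 8), against 25.2 to 78.5 CPM elsewhere. Of its 295 UMIs in pool 1, 246 lay in the cells with 1 mitotic UMI, and of its 280 in pool 2, 192 lay in those with 3. Its member Pf4, a chemokine, was higher than in LECs without cycle transcripts (24.7 and 15.7 against 2.62 and 5.02 CPM; edgeR, BH-adjusted p = 0.031), a call that was lost with DESeq2, among cells of 5000 to 12000 UMIs and with 0 or 1 mitotic UMI. The mural list summed to 250 and 241 CPM (7 and 6 of 8 detected), against 246 to 350 CPM in the other classes. The erythroid list gave 11.1 CPM in pool 1 and 378 in pool 2, where Hbb-bs alone had 247 CPM, with 4 of its 7 genes detected in each pool, against 9.78 to 154 CPM in the other classes. Of its 1032 UMIs in pool 2, 1005 lay in the 100 cells with 3 UMIs of the 4 genes. The melanocyte, retinal and corneal lists summed to at most 3.66 CPM. The part of these transcripts in the differences below was not tested. Of the cells, 7.14 and 7.44% were among the 8% of barcodes with the highest doublet scores, against 5.85 and 6.00% of LECs without cycle transcripts and 12.4 and 7.87% of mitotic-gene LECs. No doublets were removed. The 2 pools shared 27 barcodes, on which 3 of the cells lay.

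LECs without cycle transcripts were the first comparison, which asked what sets the cells apart from the mass of the epithelium. Of 11416 genes tested, 1376 were higher (12.1%) and 1399 lower (12.3%) in Cenpa/Ccnb2 LECs at a threshold of 0.05 on the BH-adjusted p of edgeR. Most differences were small: 242 of the higher and 249 of the lower genes differed by more than 2-fold, and the median log2 fold change over all genes was -0.01. Cycle genes that travel with the 4 chosen transcripts are high in part because of the choice, and their values are a description.

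Among them were genes of the chromosomal passenger complex, which corrects spindle attachments: Birc5 (survivin) had 191 and 221 CPM against 5.61 and 6.11, and Cdca8 (borealin) 97.4 and 102 against 5.44 and 5.20. Cdca3, which takes part in the destruction of an inhibitor of mitotic entry, had 125 and 147 CPM against 3.35 and 2.53. It had the largest increase among genes at 50 CPM or more (5.45 ± 0.12). Mki67, the proliferation marker, had 89.3 and 91.9 CPM against 3.75 and 2.85, and the motor of the kinetochore Cenpe 51.1 and 60.4 against 2.95 and 3.03. Neither pool overlapped with the other class for any of the 5 genes. Pools that point the same way were the rule among called genes, with 1372 of the 1376 higher genes higher in both. A call favours genes whose pools agree, so such counts, here and below, follow in part from the call.

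Of the centromere list, 8 of 18 genes tested were higher and 1 lower, with a median log2 fold change of 0.82 beside -0.01 over all genes. For this and the lists that follow, 12.1% of all genes were higher and 12.3% lower. Cenpw and Cenpm, subunits of the inner kinetochore, had 3.57 ± 0.09 and 3.57 ± 0.12, at 106 and 131 CPM for Cenpw and 78.3 and 69.2 for Cenpm. Hjurp, the chaperone that loads CENP-A, was the lower one, at 13.2 and 10.6 CPM against 19.3 and 17.8 (-0.68 ± 0.18). Of the outer kinetochore and checkpoint list, 11 of 24 were higher and 1 lower, and of the G2/M list 22 of 26 and 1. The cytokinesis list had 13 of 18 higher and none lower. Spc24, a subunit of the NDC80 complex, rose by 3.34 ± 0.11 on the log2 scale, and Racgap1, of the central spindle, by 4.02 ± 0.16.

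DNA replication genes went the other way: 7 of 48 were higher and 22 lower, with a median of -0.52. Over all genes tested, 12.1% were higher and 12.3% lower, so only the share of lower genes stood well apart. None of these 48 genes took part in setting the classes, so LECs without cycle transcripts can include cells with replication transcripts. The list summed to 1060 and 1228 CPM in that class and to 1024 and 1034 in Cenpa/Ccnb2 LECs. Pcna, the sliding clamp, had 36.2 and 42.5 CPM against 46.9 and 63.3 (-0.53 ± 0.10, adjusted p = 8.16e-06). Cdc6, a licensing factor, had 0.425 and 1.10 CPM against 2.62 and 4.07, and Ung, a DNA repair glycosylase, had a difference of -1.95. Pclaf, a partner of Pcna, was an exception, at 61.3 and 65.9 CPM against 14.0 and 16.0 (2.05 ± 0.10).

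Against mitotic-gene LECs, 1035 genes were higher (9.07%) and 1266 lower (11.1%). Since the cells were chosen for few UMIs of 6 mitotic genes, low levels of other mitotic genes follow in part from the choice. Their levels are given as ratios between the 2 classes, with no order in time. Over the 86 genes of the centromere, kinetochore, G2/M and cytokinesis lists, the level in Cenpa/Ccnb2 LECs was a median of 13.5% of that in mitotic-gene LECs. It was under 10% for 36 genes, from 10 to 25% for 23, from 25 to 50% for 13, from 50 to 75% for 7 and above that for 7.

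At the low end stood kinases and spindle regulators. Plk1, the polo-like kinase of mitosis, had 3.83 and 2.56 CPM against 164 and 131, or 2.16% of the mitotic-gene level. Aurkb, the kinase of the passenger complex, had 7.23 and 3.66 against 171 and 152 (3.37%), and Spc25, of the NDC80 complex, 4.68 and 4.39 against 174 and 154 (2.76%). Nusap1, which bundles spindle microtubules, had 5.53 and 5.49 against 275 and 225. Sgo2a, the protector of centromeric cohesion, and Anln, a scaffold of the cleavage furrow, stood at 2.09 and 3.25%. Top2a, the DNA decatenating enzyme, had 37.9 and 34.8 against 843 and 678 (4.78%). The fitted log2 differences were -5.51 for Plk1, -4.89 for Aurkb and -5.46 for Nusap1, all on few UMIs in Cenpa/Ccnb2 LECs.

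At the high end, Chmp4b, a membrane scission protein of abscission, stood at 122%, and Zwint, a kinetochore scaffold, at 86.6% of the mitotic-gene level. A high ratio need not mark division. The cytokinesis list summed to 772 and 729 CPM in LECs without cycle transcripts, against 1127 and 1117 in Cenpa/Ccnb2 LECs. Zwint was also near LECs without cycle transcripts, with 188 and 178 CPM against 176 and 159 (edgeR, BH-adjusted p = 0.291). Below them, Cenpw stood at 63.6%, Cenpm at 54.0% and Cks1b, a small subunit of cyclin-dependent kinases, at 51.5%. Cdca3 stood at 38.2%, Spc24 at 36.3%, Birc5 at 29.1% and Cdca8 at 22.7%. Within single complexes the transcripts differed: Spc24 stood at 36.3% and its partner Spc25 at 2.76%, and Birc5 and Cdca8 stood at 29.1 and 22.7% beside Aurkb at 3.37%. Pttg1 (securin), singled out after its values were seen, was above the mitotic-gene level, with 40.4 and 47.6 CPM against 31.7 and 33.8 (0.46 ± 0.13, edgeR, BH-adjusted p = 0.00582). The plot of cycle genes by class shows such genes, those of high ratio mostly to the left.

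**Figure D3:**
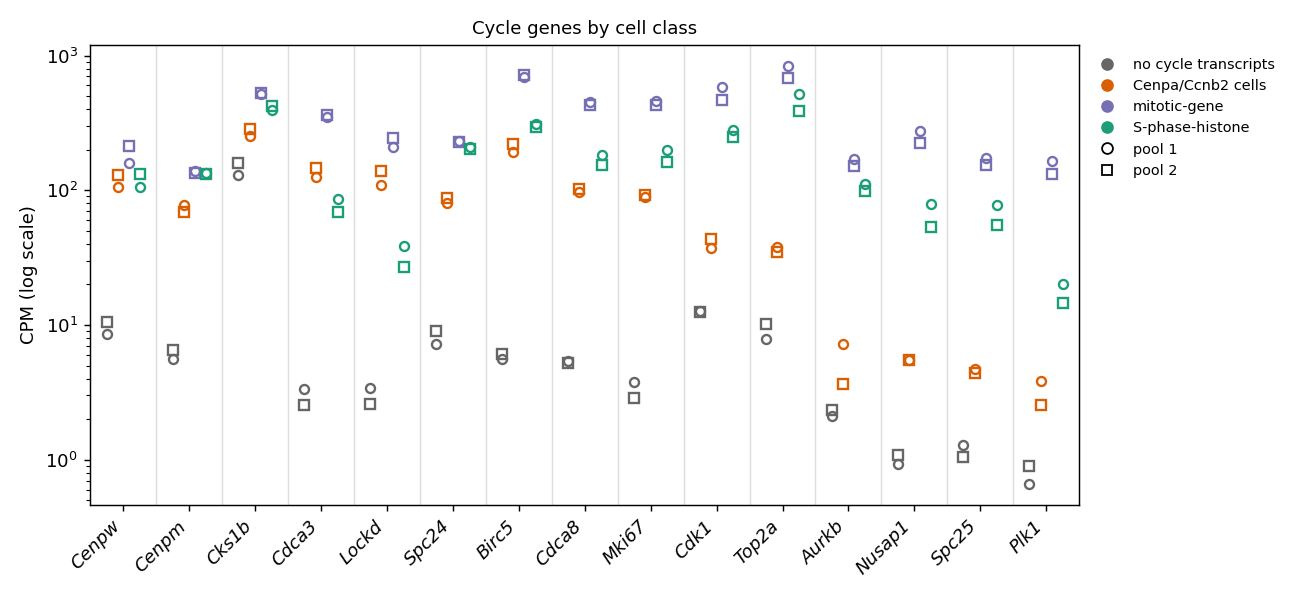
CPM (log scale) of 15 cycle genes outside the defining rule in 4 classes of LECs (colours) and 2 pools (circles, pool 1; squares, pool 2). In Cenpa/Ccnb2 LECs, genes at the left such as Cenpw (106 and 131 CPM) lie below the mitotic-gene level, at 63.6% of it for Cenpw. Genes at the right such as Plk1 (3.83 and 2.56 CPM) lie near LECs without cycle transcripts.

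S-phase-histone LECs were the third comparison. There, 1807 genes were higher (15.8%) and 2324 lower (20.4%) in Cenpa/Ccnb2 LECs. All 48 replication genes tested were lower, with a median log2 difference of -3.52. Clspn, the checkpoint mediator, had 1.70 and 3.66 CPM against 144 and 156, and Rrm2, of ribonucleotide reductase, 8.93 and 12.1 against 407 and 370. Esco2, the cohesin acetyltransferase, had 0.851 and 1.83 against 118 and 122, and E2f1, the transcription factor of S-phase genes, 1.28 and 2.20 against 83.7 and 73.4. Esco2 differed by -6.48 on few UMIs in Cenpa/Ccnb2 LECs, with no overlap between the classes (edgeR, BH-adjusted p = 1.4e-40). Of the 2324 lower genes, 2320 were lower in both pools. Of 38 replication-dependent histones tested, 36 were lower. The rule asked for few UMIs of 3 of their kin, so these differences too follow in part from the choice.

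Histone transcripts of another kind were higher than in LECs without cycle transcripts. Of 16 histone genes with polyadenylated transcripts, which are also made outside S phase, 11 were higher than in LECs without cycle transcripts and none lower (median 0.86), and their summed level was 10306 and 11583 CPM against 5372 and 5977. Against mitotic-gene LECs 4 were higher and 4 lower (median 0.02), and against S-phase-histone LECs 5 and 5 (median -0.06). In the same order of classes, 12.1, 9.07 and 15.8% of all genes were higher and 12.3, 11.1 and 20.4% lower. H2afz, a variant H2A of active promoters, had 3009 and 3351 CPM against 647 and 753 (2.14 ± 0.03, edgeR, BH-adjusted p = 1.56e-70). H2afv, its close paralog, had a difference of 1.76 ± 0.04. Hist1h2bc, a core histone H2B gene of chromosome 13, had 258 and 302 CPM against 28.7 and 29.99 (3.17 ± 0.27, adjusted p = 0.00617). Its level was 73.9 and 139 CPM in mitotic-gene LECs (1.42 ± 0.28, adjusted p = 0.0576) and 351 and 574 in S-phase-histone LECs (-0.77 ± 0.24, adjusted p = 0.0999). Like Hist1h1c, its pools did not overlap with those of mitotic-gene LECs, yet neither difference passed the threshold. Histone genes share sequence, and reads could be split between copies. Hist3h2ba, another H2B gene, had the largest increase over mitotic-gene LECs among called genes at 50 CPM or more, at 273 and 308 CPM against 121 and 153 (1.11 ± 0.06), with 251 and 292 in LECs without cycle transcripts.

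Cholesterol synthesis genes stood high as a group. Of 24 tested, 22 were higher than in LECs without cycle transcripts and none lower, with a median log2 difference of 1.17. The summed level of the list was 1486 and 1278 CPM against 600 and 513. Against S-phase-histone LECs 20 were higher and 1 lower (median 1.03). Mitotic-gene LECs had 1442 and 1404 CPM: 2 genes were higher and 2 lower in Cenpa/Ccnb2 LECs, with a median of -0.00. Over all genes tested, 12.1, 9.07 and 15.8% were higher than in LECs without cycle transcripts, mitotic-gene and S-phase-histone LECs. The list was chosen with earlier results of these data known.

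Idi1, the isomerase that supplies prenyl units, had 121 and 115 CPM against 31.0 and 23.8 in LECs without cycle transcripts (2.05 ± 0.12, edgeR, BH-adjusted p = 2.77e-09). Hmgcs1, which makes HMG-CoA, had 202 and 153 against 64.0 and 48.7 (1.60 ± 0.07), and Msmo1, a sterol demethylase, 123 and 77.6 against 30.9 and 20.8 (1.90 ± 0.09). Msmo1 and Hmgcs1 did not pass the test against mitotic-gene LECs (-0.00 ± 0.09 and 0.07 ± 0.07, adjusted p = 0.988 and 0.531). Fdps, farnesyl diphosphate synthase, had 159 and 153 CPM against 49.97 and 45.2, 126 and 139 in mitotic-gene LECs and 77.6 and 71.3 in S-phase-histone LECs. It was higher than in each of the 3 classes, though over mitotic-gene LECs by only 0.25 ± 0.07 (adjusted p = 0.00517). That last call was lost with DESeq2, without the block for pool, among cells of 5000 to 12000 UMIs, and with 0 or 1 mitotic UMI.

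D-type cyclins were low. These proteins open G1 by binding Cdk4 and Cdk6. Ccnd2 had 301 and 242 CPM against 731 and 669 in LECs without cycle transcripts (-1.42 ± 0.05, edgeR, BH-adjusted p = 2.81e-31), and Ccnd1 200 and 205 against 370 and 389 (-0.96 ± 0.05). Of the G1 list, 12 of 24 genes were lower and none higher, beside 12.3 and 12.1% of all genes. Ccnd2 stood a little above mitotic-gene LECs, which had 220 and 169 CPM (0.52 ± 0.06, adjusted p = 1.11e-10), a call that was lost among cells of 5000 to 12000 UMIs (0.62). Ccnd1 did not pass the test there (198 and 201 CPM, adjusted p = 0.625). Cdkn1c (p57), an inhibitor of cyclin-dependent kinases that rises as fibers form, had 908 and 767 CPM against 2026 and 2335 (-1.44 ± 0.16, adjusted p = 0.0118). It had 733 and 653 in mitotic-gene and 483 and 402 in S-phase-histone LECs.

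Early differentiation genes followed the same direction: 19 of 23 were lower than in LECs without cycle transcripts and none higher (median -0.83). Over all genes, 12.3% were lower and 12.1% higher. Rbm24, an RNA-binding protein of lens and muscle, had 23.0 and 16.1 CPM against 104 and 106, the largest decrease among genes at 50 CPM or more (-2.49 ± 0.11, edgeR, BH-adjusted p = 7.04e-33). Pmp22, a membrane protein, had 83.4 and 64.4 against 238 and 229, and Jag1, a Notch ligand, 29.4 and 29.7 against 73.7 and 74.4. Crygn, a gamma crystallin, had 50.2 and 50.2 against 129 and 120. Against mitotic-gene LECs 6 of the 23 were higher and none lower (median 0.21), and against S-phase-histone LECs 12 were higher and 3 lower. LECs without cycle transcripts include cells on the way to fibers, whose number was not estimated here.

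**Figure D4:**
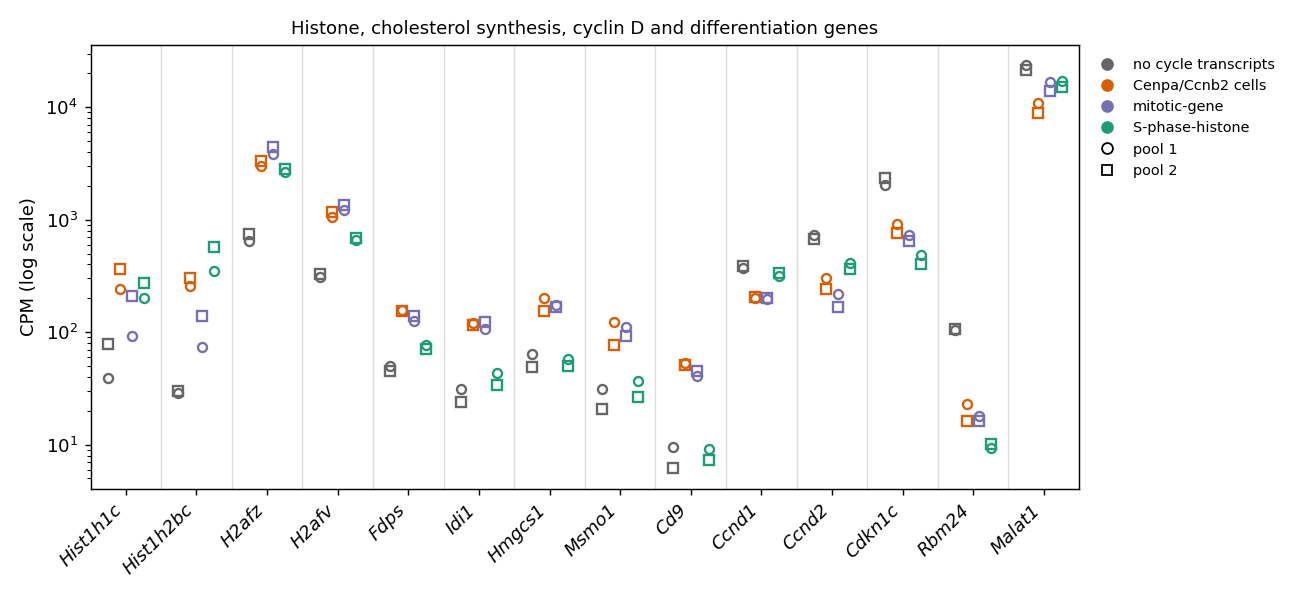
CPM (log scale) of histone, cholesterol synthesis, cyclin D and differentiation genes, with Cd9 and Malat1, in 4 classes of LECs (colours) and 2 pools (circles, pool 1; squares, pool 2). Cholesterol genes of Cenpa/Ccnb2 LECs lie near those of mitotic-gene LECs, as for Hmgcs1 (202 and 153 against 174 and 167 CPM), and Malat1 is lower than in each other class of the same pool.

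A few genes differed from all 3 classes in 1 direction. By the largest of the 3 p-values of a gene, BH-adjusted over all genes, 178 genes were higher (1.56%) and 134 lower (1.17%). This way of calling was chosen after the values were seen. Cttnbp2, a cortactin-binding protein, had 50.6 and 51.6 CPM, against 26.3 and 23.1 in LECs without cycle transcripts, 26.7 and 26.5 in mitotic-gene LECs and 21.0 and 21.4 in S-phase-histone LECs. Its log2 differences were 1.00 ± 0.11, 0.97 ± 0.13 and 1.22 ± 0.15. Flrt3, a membrane protein of cell adhesion and FGF signalling, had 117 and 124 CPM and differences of 0.87, 0.62 and 1.29. Fgfbp3, an FGF-binding protein, and Egr1, an immediate early transcription factor, were higher as well, by 0.60 to 0.74 and by 0.30 to 0.36. Without the block for pool, Egr1 was no longer called against LECs without cycle transcripts (0.31) or mitotic-gene LECs (0.30).

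Oxidative phosphorylation genes lay slightly above all 3 classes. Of 30 genes, 23, 26 and 22 were higher than in LECs without cycle transcripts, mitotic-gene and S-phase-histone LECs and none was lower in any. The medians were 0.26, 0.19 and 0.21. Over all genes tested, 12.1, 9.07 and 15.8% were higher. Cox8a, a subunit of cytochrome oxidase, had 1346 and 1547 CPM against 1044 and 1158, 1185 and 1371, and 1121 and 1262.

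Malat1, a nuclear noncoding RNA, was the most abundant of the genes below all 3 classes, at 10888 and 8906 CPM. The level was 23816 and 21556 in LECs without cycle transcripts, 16777 and 13887 in mitotic-gene LECs, and 17050 and 15116 in S-phase-histone LECs. The log2 differences were -1.25 ± 0.04, -0.61 ± 0.04 and -0.76 ± 0.04 (edgeR, BH-adjusted p = 4.45e-11, 7.31e-08 and 4.06e-09). The call against mitotic-gene LECs was lost among cells of 5000 to 12000 UMIs (-0.54). Tenm2, a cell adhesion protein of a very long gene, had 50.6 and 52.0 CPM against 88.9 to 116 in the other classes, and Cbx5, a heterochromatin protein, 87.6 and 101 against 129 to 319. Hspa8, a chaperone, had 851 and 899 CPM against 1165 to 2173. In 5 bins of gene length, a split chosen after the values were seen, the bin of the longest genes had a median difference of -0.07 from LECs without cycle transcripts (7.19% higher, 15.2% lower), and that of the shortest 0.01 (15.0% higher, 16.0% lower).

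Cd9, a tetraspanin of the plasma membrane, was high in both Cenpa/Ccnb2 and mitotic-gene LECs. Its level was 52.8 and 50.9 CPM, against 40.4 and 44.7 in that class (0.31 ± 0.13, edgeR, BH-adjusted p = 0.107). It had 9.49 and 6.15 in LECs without cycle transcripts and 9.05 and 7.31 in S-phase-histone LECs (2.66 ± 0.14 and 2.62 ± 0.20). Kdm5b, a histone demethylase, had 100 and 77.3 CPM, close to the 97.02 and 73.2 of LECs without cycle transcripts (0.01 ± 0.08, adjusted p = 0.92). It stood above mitotic-gene LECs, with 55.4 and 41.3 (0.91 ± 0.10), and S-phase-histone LECs, with 19.4 and 16.2 (2.26 ± 0.13).

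The cells also varied among themselves. Levels by the number of mitotic UMIs are given as a description with no test, since the rule's genes order the cells. From cells with 0 to cells with 3 mitotic UMIs, Birc5 went from 140 and 146 to 335 and 318 CPM. Cdca8 went from 58 and 69 to 137 and 120, and Mki67 from 57 and 58 to 140 and 110. Tubb4b, a tubulin singled out after its values were seen, went from 368 and 291 to 550 and 488. Ccnd1 went down, from 251 and 238 to 133 and 178. Top2a stayed between 27 and 44 in all 4 bins, and Fdps between 135 and 177.

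Hist1h1c showed no common direction over these bins, at 248, 258, 232 and 217 CPM in pool 1 and 286, 410, 385 and 407 in pool 2. The cells just outside the limit, with 4 mitotic UMIs and 3 or more of the 4 genes, had 320 and 332 CPM of Birc5, 121 and 129 of Ccnd1 and 70 and 73 of Top2a. All mitotic-gene LECs together had 698 and 721 CPM of Birc5 and 843 and 678 of Top2a. Just inside the other limit, cells with 3 UMIs of the 4 genes had 138 and 139 CPM of Birc5 and 81 and 82 of Lockd. Cells just outside, with 2, had 86 and 97 of Birc5 and 57 and 64 of Lockd. The plot of levels among the cells shows the bins for 8 genes.

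**Figure D5:**
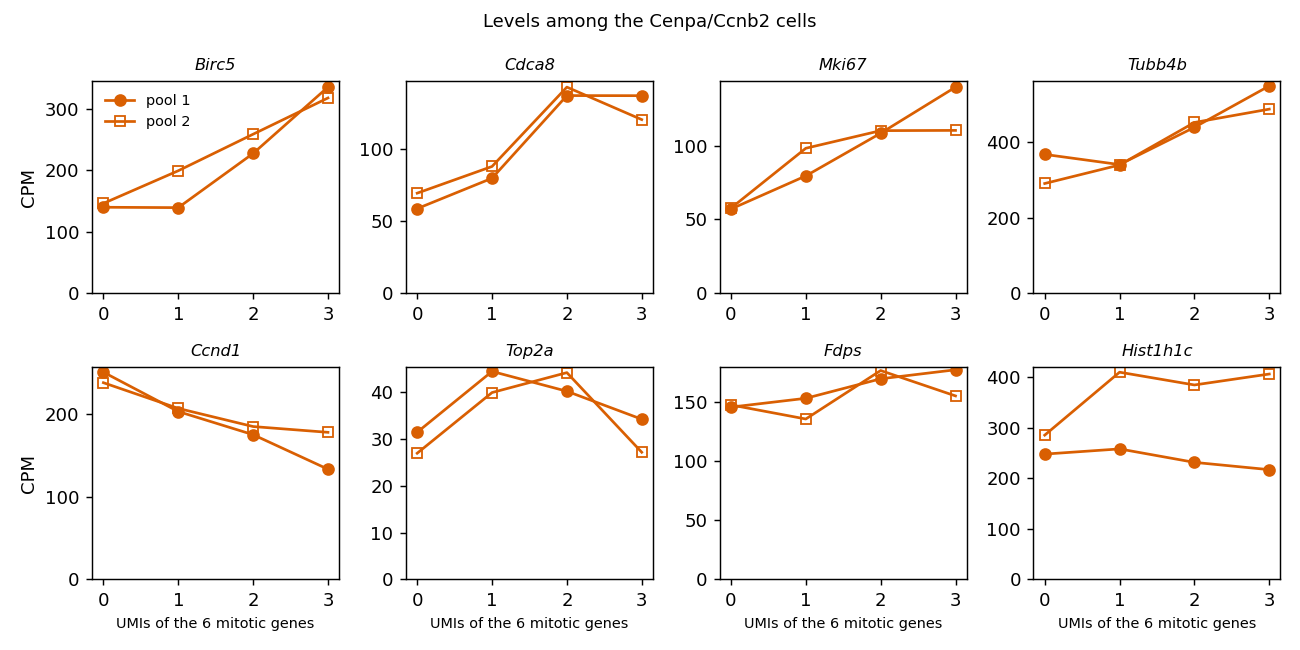
CPM in Cenpa/Ccnb2 LECs with 0, 1, 2 or 3 UMIs of the 6 mitotic genes, for 8 genes outside the rule, with filled circles for pool 1 and open squares for pool 2. Birc5 is higher in the bin with 3 mitotic UMIs than in that with 0 (335 and 318 against 140 and 146 CPM) and Ccnd1 is lower (133 and 178 against 251 and 238 CPM).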

How the data were processed

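The members, the markers and the gene lists were chosen with earlier results of these data known. The deposited files hold raw UMI counts per gene and barcode for 2 samples, made by the authors with Cell Ranger (6.1.1 in the matrix header) on mm10. Annotation details are not given in the sources used here. No barcode was removed as a doublet, and scores came from Scrublet as run in scanpy 1.11.5. UMIs were summed per pool and class over 4 classes (2350559 to 30136753 UMIs per sum) and tested with edgeR 4.0.16: filterByExpr, TMM factors, robust quasi-likelihood fit, pool as a block. The block pairs sums of the same pool, which come from the same droplets. P-values were BH-adjusted over 11416 of 32285 genes, with the 18 genes of the rule given as levels only. CPM values use all UMIs of a sum. DESeq2 1.42.0 and other filters, depths and limits were alternatives. Named genes were the 10 largest increases and decreases per comparison past the threshold, alike in both pools and at 50 CPM or more; the 10 largest above and below all 3 classes; the markers; up to 4 abundant members of each list; the 3 largest changes of 5 cycle lists; and Fdps, Hmgcs1 and Msmo1. Positions are from GENCODE on GRCm38. The promoter tables have no entry for Hist1h1c, Hist1h2bc and Aurkb.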

Additional observations from a re-analysis of the deposited data

Results flagged for a closer look

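Cells outside the lens limits were used in no comparison, and some of them passed the cycle part of the rule. Among 1051 barcodes within the UMI, gene and mitochondrial limits but under the alpha crystallin limit, 21 did so (2.00%). Of these, 19 were among 651 barcodes with 3 or more UMIs of the endothelial list: 13 of 384 in pool 1 (3.39%, exact 95% interval 1.81 to 5.72) and 6 of 267 in pool 2 (2.25%, 0.829 to 4.83), at median depths of 3171 and 3524 UMIs.

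Among 2253 beta-crystallin-rich lens cells, 8 passed it (0.355%), 4 in each pool, at median depths of 12260 and 13504 UMIs.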

How the results depend on the processing

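The number of genes called depended on the tool and on the block. Against LECs without cycle transcripts, DESeq2 called 787 higher and 487 lower, the fit with no replicate block 541 and 572, and members with 0 or 1 mitotic UMI gave 867 lower. Against mitotic-gene LECs, DESeq2 called 497 higher and 701 lower, and the fit with no replicate block 181 and 752. Against S-phase-histone LECs, DESeq2 called 982 higher and 1511 lower, and the fit with no replicate block 1006 higher. The cause was not tested. The mean share of lens cells was 3.22% with 4 or more UMIs of the 4 genes, 6.38% with 2 or more and 3.31% after thinning to 3000 UMIs, and ranged from 3.81 to 5.02% when 1 pool was left out. Of the called fold changes of named genes, 1 changed direction: Smc2 against LECs without cycle transcripts was -0.022 with 0 or 1 mitotic UMI. Of 411 such values, 300 kept their call without the block and 363 with 0 or 1 mitotic UMI, and 368 of 410 did with DESeq2. Among cells of 5000 to 12000 UMIs 372 of 410 did. Leaving out 1 pool gives values with no test, and all 411 kept their direction. That follows in part from the choice, since many of these genes were named for the same direction in both pools. All p-values rest on 2 pools.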

Other observations

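Against S-phase-histone LECs, where 15.8% of all genes were higher and 20.4% lower, 1 of 12 heat shock genes was higher and 6 were lower in Cenpa/Ccnb2 LECs, with a median log2 difference of -0.27. Against mitotic-gene LECs, where 9.07% of all genes were higher and 11.1% lower, 4 were higher and 2 lower. Immediate early genes were 7 of 22 higher and 1 lower against mitotic-gene LECs (median 0.29), and Fos, the most abundant of those named, had 4525 and 4241 CPM against 3835 and 3529 (edgeR, BH-adjusted p = 0.119). Crystallins outside the rule stood above mitotic-gene LECs in 6 of 10 genes, with none lower (median 0.37), and Crybb3 had 18759 and 18528 CPM against 16550 and 15867.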
